A study of Mus musculus with 12 samples.

Results

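The effect of losing the Mirc11 microRNA cluster was examined in natural killer (NK) cells after 6 h of stimulation through NKG2D, an activating receptor. The comparison took every library labelled Mirc11-/- and stimulated (3 libraries) and every library labelled wild-type and stimulated (3 libraries), which are 6 of the 12 libraries of the series. The other 6 libraries were Mirc11-/- and wild-type NK cells left without stimulation, 3 of each, and they were used to estimate the spread and to show which differences were already present before stimulation. All 12 libraries were poly(A) RNA from mouse spleen NK cells expanded in culture with interleukin-2, and all carry the strain label C57BL/6. Every group therefore carries the interleukin-2 culture, and the 2 groups compared both carry the stimulation. The labels do not say whether the 3 libraries of a group came from separate animals, how the deletion was made, or whether wild-type cells came from littermates. Levels are given as CPM, counts scaled to a common library size with a composition (TMM) factor. Differences are Mirc11-/- minus wild-type on the log2 scale with the standard error (SE) of the edgeR fit, and a gene was called when its Benjamini-Hochberg adjusted p over all 17457 tested genes was under 0.05.

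NK cells are innate lymphocytes that kill infected or transformed cells with perforin and granzymes and that secrete interferon gamma, other cytokines and chemokines. NKG2D, encoded by Klrk1, recognises stress-induced ligands and signals through the adaptors DAP10 (Hcst) and, in mice, DAP12 (Tyrobp), which lead to phosphoinositide 3-kinase, SLP-76, phospholipase C gamma, ERK and NF-kB. MicroRNAs are short RNAs that lower the level or translation of messenger RNAs whose 3′ untranslated regions pair with the microRNA's seed, so that loss of a microRNA can raise its direct targets while indirect effects may go either way.

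Mirc11 lies on the plus strand of mouse chromosome 8 and gives rise to miR-23a, miR-27a and miR-24-2. Their mature guide strands, from RefSeq (GRCm38.p6), are shown here because the seeds, bases 2 to 8 in capitals, define the target sites examined further on. All 3 seeds differ, so each microRNA addresses its own set of sites.
miR-23a-3p: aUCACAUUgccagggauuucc
miR-27a-3p: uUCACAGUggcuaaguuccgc
miR-24-3p: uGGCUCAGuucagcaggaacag
They lie at chr8:84208563-84208583, chr8:84208727-84208747 and chr8:84208875-84208896. The matching 7-base site in a messenger RNA reads AATGTGA for miR-23a, ACTGTGA for miR-27a and CTGAGCC for miR-24. A paralogous cluster elsewhere in the genome encodes the same miR-24-3p sequence and close relatives of the other microRNAs, and mature microRNAs were not measured in these libraries.

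Poly(A) libraries caught few reads from the microRNA genes themselves. Mir27a had 1, 0 and 4 counts in stimulated wild-type libraries 1, 2 and 3 and 0 counts in each stimulated Mirc11-/- library. Mir24-2 had 1 count, in stimulated wild-type library 3, and Mir23a had none in any of the 12 libraries. These counts are in the direction of the labels but are too few to test. Transcripts beside the cluster were measured better. Gm37352, an unnamed gene model just upstream, was at 15.3, 18.6 and 22.7 CPM in the stimulated wild-type libraries and at 67.4, 68.7 and 53.0 CPM in the Mirc11-/- ones. It was higher by 1.74 log2 ± 0.142 (SE; adjusted p = 2.89e-05), with no overlap between the groups. Gm26532, a noncoding model that borders Mir24-2, was lower (-1.60 log2, adjusted p = 0.00336). Zswim4, a protein-coding gene downstream, was at 41.0, 46.6 and 47.4 CPM in wild-type and 33.2, 28.1 and 30.7 CPM in Mirc11-/- libraries (-0.55 log2, adjusted p = 0.00303). Trmt1, a tRNA methyltransferase gene, was also lower (-0.75 log2, adjusted p = 0.000275), and Podnl1, a proteoglycan-like gene, was higher (1.01 log2, adjusted p = 0.0369, a call that ended in 7 of 12 leave-outs). Of 11 tested genes within the list of neighbours, 2 were called higher and 3 lower, against 3.89% higher and 5.13% lower among all tested genes. Mri1, which lies between Zswim4 and Trmt1 but is not counted on that list, was lower too (-1.52 log2, adjusted p = 3.53e-05). Leaving out stimulated Mirc11-/- library 1, stimulated wild-type library 2 or 3, or any unstimulated Mirc11-/- library left 1 neighbour called higher. Whether transcripts read through the edited locus are counted with these genes was not tested.

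The 6 libraries had totals of 16.3, 17.3 and 18.2 megacounts in Mirc11-/- and 22.1, 20.8 and 20 megacounts in wild-type cells. Reads in genes that NK cells should not express differed with the genotype after stimulation. Vomeronasal receptor genes, which belong to the olfactory system, summed to 41.5, 26.1 and 24.8 CPM in wild-type and to 85.4, 49.1 and 59.1 CPM in Mirc11-/- libraries 1, 2 and 3, against 13.6 to 17.4 CPM in the 6 unstimulated libraries. Between 31320 and 34972 genes had a count in the stimulated Mirc11-/- libraries and between 28067 and 31773 in the wild-type ones, although the wild-type libraries were deeper. Mirc11-/- library 1 stood apart, at -40.4 on the leading principal component against -7.25 and -11.7 for the other 2 Mirc11-/- libraries and 6.86, 26.9 and 25.5 for the wild-type ones. Results below are therefore given with and without it where it matters. When the vomeronasal sum was added to the model as a covariate, 10 genes were called higher and 20 lower, 28 of them also without the covariate. The vomeronasal sum did not overlap between the 2 stimulated groups, so genotype and background reads cannot be told apart by that model. Of the called genes named in the text, Ccl3, Itln1, Fcgr2b, H60b, Fcrl6, Pdgfb, Gm37352, Man2b1, Pde4c, Mri1, Adgrg3 and Lzts1 kept their calls under it and the others lost theirs.

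**Figure D1:**
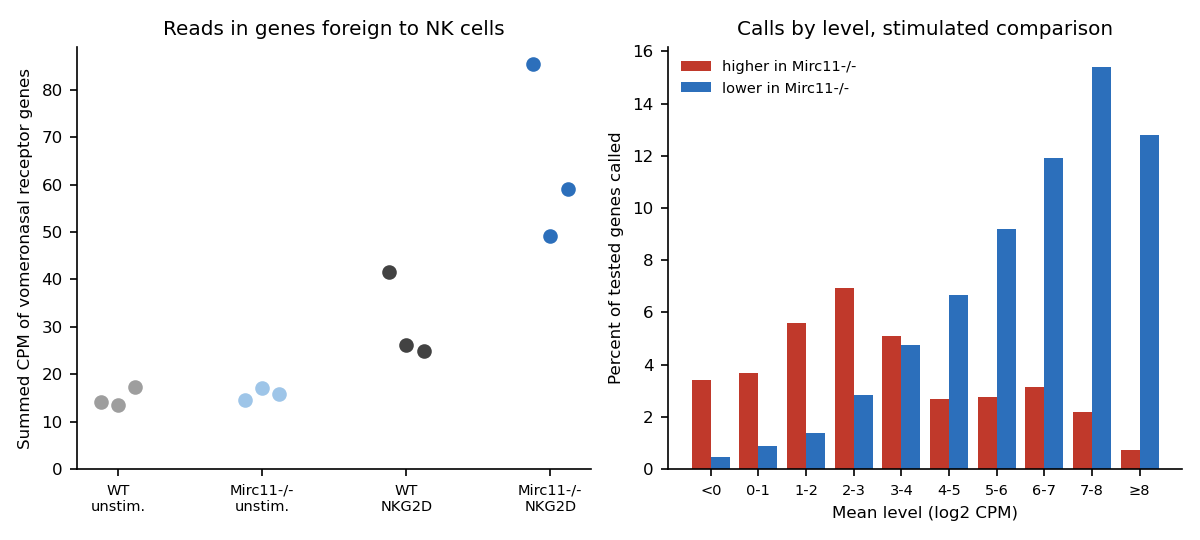
Left, summed CPM of vomeronasal receptor genes in each of the 12 libraries (points) by group; right, percent of tested genes called higher (red) or lower (blue) in stimulated Mirc11-/- cells, by mean level over the 12 libraries in log2 CPM. The stimulated Mirc11-/- libraries lie between 49.1 and 85.4 CPM, above all others, and lower calls are most frequent between 7 and 8 log2 CPM (15.4%).

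In stimulated cells 679 genes were called higher in Mirc11-/- than in wild-type (3.89% of 17457 tested) and 896 lower (5.13%), 1575 in all (9.02%). The libraries of the 2 groups did not overlap for 5695 genes (32.6%). The 2 directions differed in kind. The 896 lower genes were 95.5% protein-coding with a median difference of -0.52 log2, and 54 of them (6.03%) had a mean level under 2 log2 CPM. The 679 higher genes were 54.8% protein-coding with a median of 0.92 log2, and 262 of them (38.6%) lay under that level. Olfactory receptor genes contributed 53 of the higher calls out of 265 tested (median 0.75 log2) and 1 lower call. Long intergenic noncoding RNAs contributed 76 higher and 9 lower calls out of 802. Among the 6459 genes under 2 log2 CPM the median difference was 0.41 log2, and among the 10998 above it -0.08 log2. Of those 10998 genes 3.79% were called higher and 7.66% lower, shares to set beside the counts of the lists below. The rise of low genes accompanied the higher vomeronasal sum of the Mirc11-/- libraries, and the part of background reads in it was not tested. Without Mirc11-/- library 1, 209 genes were called higher and 505 lower, without wild-type library 2, 77 and 260, and without wild-type library 3, 102 and 347. With the 6 stimulated libraries alone, 58 were called higher and 157 lower.

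**Figure D2:**
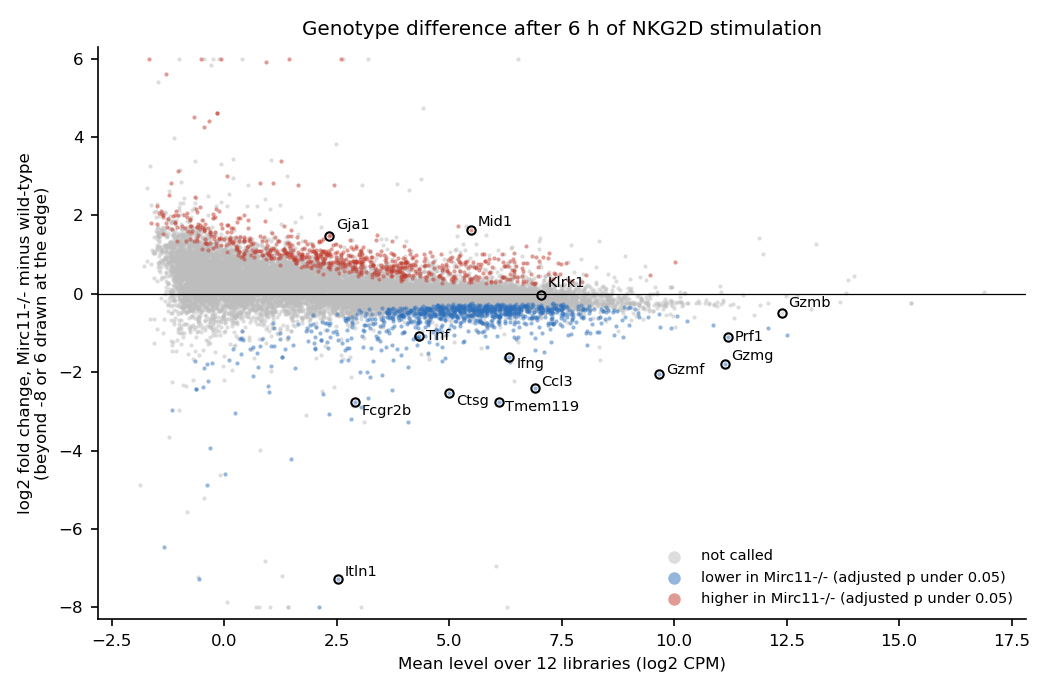
Each point is a tested gene, with its mean level over the 12 libraries (log2 CPM) on the x axis and the log2 difference, Mirc11-/- minus wild-type after stimulation, on the y axis; red and blue mark genes called higher (679) and lower (896). Cytokine and granzyme genes such as Ccl3 (-2.40), Ifng (-1.60) and Gzmf (-2.04) lie among the larger falls at high levels, while Klrk1 (-0.02) lies at 0.

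Cytokines and chemokines were lower in stimulated Mirc11-/- cells. Of 20 tested genes of this list (28 listed), 9 fell (45%, against 5.13% of all tested genes) and none rose. The median difference was -0.79 log2 against 0.02 over all tested genes, and the same 20 genes had a median of 0.22 log2 between the unstimulated genotypes. In RNA from a whole culture, fewer cells that express a gene and less RNA per cell cannot be told apart. Ccl3 (ENSMUSG00000000982, GRCm38 chromosome 11, 83647844 to 83649355), a chemokine that attracts monocytes and lymphocytes, was at 268, 347 and 389 CPM in wild-type libraries and at 45.2, 84.9 and 60.7 CPM in Mirc11-/- libraries. Every Mirc11-/- library was far below every wild-type one, with means of 335 ± 61.5 and 63.6 ± 20 CPM (SD, n = 3). Ccl3 fell by 2.40 log2 ± 0.217 (adjusted p = 0.000109). Its difference was -2.20 log2 without Mirc11-/- library 1 and -1.69 log2 with the vomeronasal covariate (adjusted p = 0.000849 and 0.0407).

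Interferon gamma, the main macrophage-activating cytokine of NK cells, followed the same order. Ifng (ENSMUSG00000055170, chromosome 10, 118441046 to 118445892) was at 143, 221 and 176 CPM in wild-type and at 44.7, 71.3 and 62.0 CPM in Mirc11-/- libraries. The highest Mirc11-/- library held less Ifng than the lowest wild-type library. Ifng fell by 1.60 log2 ± 0.167 (adjusted p = 0.000214). The difference was -1.44 log2 without Mirc11-/- library 1, and -0.89 log2 with the vomeronasal covariate, where the call ended (adjusted p = 0.0542). Csf2, which encodes the myeloid growth factor GM-CSF, was at 34.6, 54.6 and 33.3 CPM in wild-type and at 17.7, 12.6 and 11.3 CPM in Mirc11-/- libraries (-1.56 log2 ± 0.221, adjusted p = 0.00235). For Csf2 the covariate left the size at -1.57 log2 while the adjusted p rose to 0.53. Tnf, the inflammatory cytokine, was at 26.5, 35.1 and 25.6 CPM in wild-type and at 14.3, 11.9 and 15 CPM in Mirc11-/- libraries (-1.08 log2 ± 0.148, adjusted p = 0.00137). For both genes all 3 Mirc11-/- libraries were below all 3 wild-type ones.

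Among the other chemokines, Ccl4, which shares receptors with Ccl3, was at 227, 323 and 362 CPM in wild-type and 71.9, 150 and 104 CPM in Mirc11-/- libraries (-1.48 log2, adjusted p = 0.00539). Xcl1, a chemokine for cross-presenting dendritic cells, was the most abundant of the list that fell, at 517, 693 and 709 CPM in wild-type and 291, 378 and 295 CPM in Mirc11-/- libraries (-0.99 log2, adjusted p = 0.00408). Ccl1 was at 191, 282 and 251 CPM in wild-type and 101, 122 and 104 CPM in Mirc11-/- libraries (-1.15 log2, adjusted p = 0.00664). These 3 chemokines did not overlap between the groups. Ccl9, a myeloid-attracting chemokine, was at 35.5, 54.6 and 57.3 CPM in wild-type and 8.93, 18.6 and 12.5 CPM in Mirc11-/- libraries (-1.88 log2, adjusted p = 0.00379). Osm, the interleukin-6 family cytokine oncostatin M, also fell (-1.12 log2, adjusted p = 0.0191), a call that ended without wild-type library 2 or Mirc11-/- library 1 (adjusted p up to 0.097).

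Not every chemokine was lower. Ccl5, a chemokine of cytotoxic lymphocytes, was at 29.2, 36.5 and 35.7 CPM in wild-type and 28.5, 38.8 and 30.6 CPM in Mirc11-/- libraries, and the groups overlapped (-0.05 log2, adjusted p = 0.8). Fasl, a death ligand, differed by -0.05 log2 and Tnfsf10, which encodes TRAIL, by 0.16 log2 without passing the test. Il2 (-1.26 log2, adjusted p = 0.149) and Lta (-0.58 log2, adjusted p = 0.257) were near the detection limit, at up to 2.65 CPM for Lta. The cytokine list kept 8 lower members without Mirc11-/- library 1 and 8 or 9 in each of the 12 leave-outs, against 1 (Ccl3) with the covariate.

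**Figure D3:**
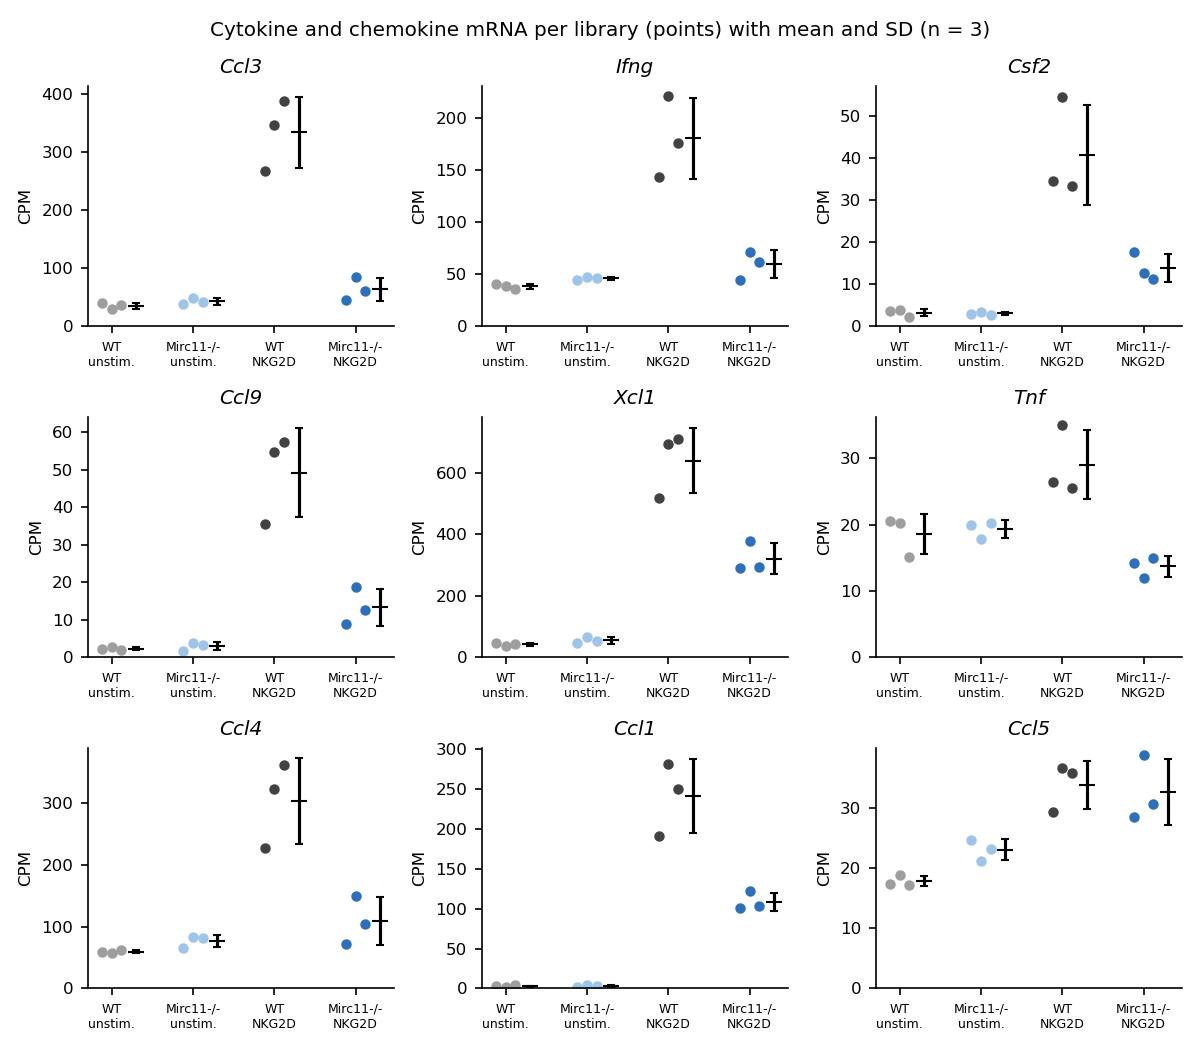
CPM of 9 cytokine and chemokine genes in every library (points) of the 4 groups, with the mean and SD (n = 3) beside them; all y axes start at 0. In the NKG2D-stimulated groups the Mirc11-/- points lie below the wild-type points for every gene shown except Ccl5, whose points overlap.

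Of the cytolytic granule genes, perforin and a subset of granzymes were among those that fell. Of 25 tested, 9 fell (36%, against 5.13% of all tested genes) and none rose. The median was -0.34 log2 (-0.07 between unstimulated genotypes), and 17 of 25 were lower without overlap (16.8% of all tested genes). Prf1 (ENSMUSG00000037202, chromosome 10, 61297833 to 61304680), which encodes the pore-forming protein perforin, was at 2020, 2400 and 2450 CPM in wild-type and 770, 1250 and 1170 CPM in Mirc11-/- libraries. Mirc11-/- library 1 was the lowest, and the other 2 were also well under every wild-type library (-1.11 log2 ± 0.175, adjusted p = 0.00304; -0.92 without Mirc11-/- library 1). Gzmb, encoding the apoptosis-inducing protease granzyme B, was at 3910, 4810 and 4650 CPM in wild-type and 2250, 3780 and 3450 CPM in Mirc11-/- libraries. Its groups did not overlap but the difference of -0.50 log2 did not pass the test (adjusted p = 0.085; 0.04 without Mirc11-/- library 2), and it was 0.16 log2 with the vomeronasal covariate (adjusted p = 0.959). Gzma, encoding granzyme A, overlapped between the groups (-0.28 log2, adjusted p = 0.311).

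The granzymes D to G, rodent genes of less known function, differed more. Gzmf was at 1310, 1480 and 1040 CPM in wild-type and 181, 337 and 415 CPM in Mirc11-/- libraries (-2.04 log2 ± 0.307, adjusted p = 0.00391). Gzmg was at 3540, 4130 and 3040 CPM in wild-type and 510, 1110 and 1480 CPM in Mirc11-/- libraries (-1.79 log2, adjusted p = 0.013). Every Mirc11-/- library was below every wild-type one for both genes, which were among the 12 largest falls, a ranking limited to genes without overlap. Gzmd (-0.87 log2, adjusted p = 0.031) and Gzme (-0.80 log2, adjusted p = 0.0225) had smaller differences, and both calls ended without wild-type library 2 or 3. These genes resemble one another, so the split of reads among them is uncertain. Of their 31-base words, 38.2% of Gzmd, 42.1% of Gzme, 22.8% of Gzmf and 33.8% of Gzmg were found in other genes. Without wild-type library 2 the cytolytic list had 4 lower members, and the calls of Gzmg and Nkg7 ended (adjusted p 0.0563 for each). With the stimulated libraries alone the list also had 4 lower members, and with the vomeronasal covariate it had 0 and a median of 0.01 log2.

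The granzyme locus on chromosome 14 moved together with its protease neighbours. From Cma1 to Gzmb (55941451 to 56262260), 10 genes were tested, all 10 were lower without overlap, and 8 were called. Of all tested genes 16.8% were lower without overlap and 5.13% were called lower. Reads shared among the similar granzymes enter these counts. Ctsg, which encodes the serine protease cathepsin G, was at 51.1, 51.4 and 38.8 CPM in wild-type and 4.41, 9.26 and 10.8 CPM in Mirc11-/- libraries (-2.53 log2 ± 0.337, adjusted p = 0.00326). Mcpt8, a mast-cell protease family gene, was at 39.4, 40.9 and 33.8 CPM in wild-type and 7.30, 13.1 and 16.1 CPM in Mirc11-/- libraries (-1.65 log2, adjusted p = 0.00237). Both genes were also called lower in unstimulated Mirc11-/- cells, Ctsg by a log2 difference of -1.87 and Gzmf likewise by -1.67 (adjusted p = 0.0225 and 0.0231). Those unstimulated calls ended in 5 of 12 leave-outs for Ctsg and 4 for Gzmf (adjusted p up to 0.115 and 0.126), and that of Mcpt8 in 6. The extent of the locus and Mcpt8 were picked with the values in view.

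Of the granule release genes on this list, Stx11 and Rab27a fell. Stx11, a syntaxin needed for granule fusion, was at 55.7, 64.6 and 62.3 CPM in wild-type and 32.0, 41.6 and 41.2 CPM in Mirc11-/- libraries (-0.67 log2, adjusted p = 0.00408). Rab27a, a small GTPase that docks granules, was at 103, 121 and 121 CPM in wild-type and 60.7, 81.6 and 82.9 CPM in Mirc11-/- libraries (-0.61 log2, adjusted p = 0.00718). Unc13d, Stxbp2 and Lyst, other genes of granule exocytosis, had differences of -0.17, -0.15 and 0.07 log2 and did not pass the test.

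The receptor and its proximal signalling genes differed little. Klrk1, which encodes NKG2D, was at 145, 148 and 134 CPM in wild-type and 125, 150 and 146 CPM in Mirc11-/- libraries, with full overlap (-0.02 log2, adjusted p = 0.937). Hcst, the DAP10 adaptor, overlapped as well (-0.15 log2, adjusted p = 0.574), and Tyrobp, the DAP12 adaptor, did not pass (-0.30 log2, adjusted p = 0.296). Of 27 proximal signalling genes 3 fell (11.1%) and none rose (median -0.10 log2). Among all tested genes 5.13% were lower, and 7.66% among those with a mean level of at least 2 log2 CPM. Lcp2, which encodes the adaptor SLP-76, was at 149, 153 and 150 CPM in wild-type and 111, 114 and 119 CPM in Mirc11-/- libraries (-0.40 log2, adjusted p = 0.0119). Its values were tight within each group and did not overlap. Lat2, an adaptor, and Plcg2, a phospholipase C gamma gene, fell by 0.41 and 0.30 log2 (adjusted p = 0.0407 and 0.0365). The calls of Lat2 and Plcg2 each ended in 7 of the 12 leave-outs, that of Lcp2 without wild-type library 2 (adjusted p = 0.0527). Leaving out wild-type library 2 left 0 called members of this list, and leaving out stimulated wild-type library 3, stimulated Mirc11-/- library 1, unstimulated wild-type library 1 or unstimulated Mirc11-/- library 2 or 3 left 1.

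Several AP-1 and other immediate-early genes fell. Of 25 AP-1 and immediate-early genes, 10 fell (40%) and none rose (median -0.42 log2, and -0.02 between unstimulated genotypes). Lower calls made up 5.13% of all tested genes and 7.66% of those with a mean level of at least 2 log2 CPM. Jun, an AP-1 subunit, was at 41.3, 49.6 and 47.2 CPM in wild-type and 30.1, 29.9 and 26.1 CPM in Mirc11-/- libraries (-0.68 log2, adjusted p = 0.00304). Egr2, a transcription factor induced by calcium and ERK signalling, was at 53.3, 74.1 and 87.4 CPM in wild-type and 35, 45.3 and 38.3 CPM in Mirc11-/- libraries (-0.86 log2, adjusted p = 0.00501). Neither overlapped between genotypes. Ier3, an early response gene, was at 15.2, 13.9 and 18.7 CPM in wild-type and 3.71, 9.09 and 5.45 CPM in Mirc11-/- libraries (-1.39 log2, adjusted p = 0.00684). Fos, the usual partner of Jun, was near 2 CPM at 6 h, overlapped, and did not pass (0.49 log2, adjusted p = 0.297). Without wild-type library 2 or 3 the list had 5 lower members each, with the stimulated libraries alone 2, and with the vomeronasal covariate 0 (median -0.09 log2).

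Genes that ERK signalling induces as its own brakes also included falls. Of 16 tested, 7 fell (43.8%) and none rose (median -0.36 log2). Lower calls made up 5.13% of all tested genes and 7.66% of those with a mean level of at least 2 log2 CPM. Dusp6, a phosphatase that inactivates ERK, was at 48.2, 56.7 and 54.7 CPM in wild-type and 32.9, 39.9 and 37.6 CPM in Mirc11-/- libraries (-0.53 log2, adjusted p = 0.00501), without overlap. Etv5, an ERK-induced transcription factor, and Spred2 and Spred1, inhibitors of Ras signalling, had differences of -0.53, -0.51 and -0.33 log2 (adjusted p = 0.0222, 0.0218 and 0.0289). The list held 1, 2 and 2 lower members without wild-type library 2, wild-type library 3 and Mirc11-/- library 3, and each of Etv5, Spred2 and Spred1 lost its call in 2 or 3 of those settings. None was called with the stimulated libraries alone or with the covariate (median -0.21 log2).

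Of 25 NF-kB members and feedback genes, 4 fell (16%) and none rose (median -0.24 log2). Lower calls made up 5.13% of all tested genes and 7.66% of those with a mean level of at least 2 log2 CPM. Nfkbia, the inhibitor that NF-kB itself induces, was at 58.1, 75.5 and 69.7 CPM in wild-type and 45.4, 50.7 and 42.6 CPM in Mirc11-/- libraries (-0.55 log2, adjusted p = 0.0122). Cflar, Tnip1 and Birc3, which restrain cell death or NF-kB signalling, had differences of -0.36, -0.35 and -0.33 log2. Tnip1 was also called lower without stimulation (-0.43 log2, adjusted p = 0.0233), a call that ended in 6 of 12 leave-outs. Nfkb1, encoding the p105 and p50 subunits, was at 322, 366 and 352 CPM in wild-type and 283, 303 and 296 CPM in Mirc11-/- libraries, without overlap and without passing the test (-0.24 log2, adjusted p = 0.0818). All 4 calls ended without wild-type library 3, and 1 was left without wild-type library 2. None was called with the stimulated libraries alone or with the covariate (median -0.02 log2).

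Ubiquitin modifiers that restrain activating receptors were close to unchanged in value. Of 30 ubiquitin and TRAF6 pathway genes 3 fell (10%) and none rose (median -0.06 log2). Lower calls made up 5.13% of all tested genes and 7.66% of those with a mean level of at least 2 log2 CPM. Tnfaip3, which encodes the deubiquitinase A20, was at 334, 332 and 371 CPM in wild-type and 380, 403 and 383 CPM in Mirc11-/- libraries, higher in every library but not past the test (0.17 log2, adjusted p = 0.287). The E3 ligase genes Cblb and Itch and the ligase and adaptor gene Traf6 overlapped, with differences of -0.04, -0.02 and -0.01 log2 (adjusted p 0.816, 0.891 and 0.921). Sqstm1, encoding the autophagy and signalling scaffold p62, was at 987, 1110 and 927 CPM in wild-type and 548, 696 and 752 CPM in Mirc11-/- libraries (-0.60 log2, adjusted p = 0.037). Tax1bp1, an A20 partner, and Otulin, a deubiquitinase of linear chains, had -0.44 and -0.32 log2 (adjusted p = 0.0153 and 0.0458). All 3 calls ended without wild-type library 2. Leaving out wild-type library 3, Mirc11-/- library 1, unstimulated wild-type library 1 or unstimulated Mirc11-/- library 3 left 1 call, and leaving out Mirc11-/- library 2 gave 5.

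NK transcription factors moved in both directions. Of 24 tested, 5 fell and 5 rose, 20.8% each (median 0.12 log2). Of all tested genes 5.13% were lower and 3.89% higher. Of those with a mean level of at least 2 log2 CPM 7.66% were lower and 3.79% higher. Irf4, induced by antigen and activating receptors, was at 49.2, 63.6 and 56.2 CPM in wild-type and 26.0, 33.8 and 28.9 CPM in Mirc11-/- libraries (-0.93 log2 ± 0.132, adjusted p = 0.00162). Id2, required for NK development, was at 436, 460 and 442 CPM in wild-type and 183, 290 and 284 CPM in Mirc11-/- libraries (-0.82 log2, adjusted p = 0.00618). Eomes, a T-box factor of mature NK cells, was at 159, 179 and 168 CPM in wild-type and 104, 120 and 123 CPM in Mirc11-/- libraries (-0.55 log2, adjusted p = 0.00266). All 3 genes were lower in every Mirc11-/- library. Zbtb32, a zinc-finger factor of activated NK cells, fell by 1.01 log2 (adjusted p = 0.00808; 0.0545 without Mirc11-/- library 1), and Tbx21, the T-box factor T-bet, overlapped (-0.06 log2, adjusted p = 0.71).

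Stat4, the transducer of interleukin-12 signals, was higher, at 91.0, 75.2 and 79.3 CPM in wild-type and 113, 134 and 131 CPM in Mirc11-/- libraries (0.62 log2, adjusted p = 0.00352), and it was also higher without stimulation (0.56 log2, adjusted p = 0.0155, a call that ended in 4 of 12 leave-outs). Runx1, Bach2, Foxo1 and Bcl6, which are linked to resting or less differentiated lymphocytes, rose by 0.49, 0.54, 0.45 and 0.48 log2 (adjusted p 0.0331, 0.0232, 0.0439 and 0.0461). The calls of Runx1, Bach2, Foxo1 and Bcl6 ended in 4, 3, 10 and 9 of 12 leave-outs (adjusted p up to 0.148, 0.106, 0.177 and 0.185). The number of factors called higher was 2 without Mirc11-/- library 1, 1 without wild-type library 2 or 3, 2 without unstimulated wild-type library 1, and 3 without unstimulated wild-type library 3 or unstimulated Mirc11-/- library 1 or 3. The number called lower was 3 without Mirc11-/- library 1.

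Most identity and receptor genes were not called. Of 31 tested, 3 fell and 1 rose (median -0.04 log2), so 9.68% were lower against 5.13% of all tested genes and 7.66% of those with a mean level of at least 2 log2 CPM. Klrg1, an inhibitory receptor of mature NK cells, was at 207, 209 and 199 CPM in wild-type and 71.8, 109 and 127 CPM in Mirc11-/- libraries (-1.0 log2, adjusted p = 0.00479). Fcgr3, the activating Fc receptor for antibody-dependent killing, was at 222, 219 and 202 CPM in wild-type and 90.4, 138 and 142 CPM in Mirc11-/- libraries (-0.80 log2, adjusted p = 0.00861). Both were lower in each Mirc11-/- library. Fcgr3 was also called lower without stimulation (-0.79 log2, adjusted p = 0.0197), a call that ended in 5 of 12 leave-outs. The interleukin-12 receptor chains diverged: Il12rb1 fell by 0.63 log2 (adjusted p = 0.00391) and Il12rb2 rose by 0.43 log2 (adjusted p = 0.0195; 0.0587 and 0.0927 without wild-type library 2 and 3). Without unstimulated wild-type library 2 or 3, 2 or 3 genes of this list were called higher.

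Among 24 activation and checkpoint genes 4 fell (16.7%) and none rose (median -0.29 log2). Lower calls made up 5.13% of all tested genes and 7.66% of those with a mean level of at least 2 log2 CPM. Havcr2, encoding the checkpoint receptor TIM-3, was at 206, 250 and 222 CPM in wild-type and 82.1, 120 and 128 CPM in Mirc11-/- libraries (-1.04 log2, adjusted p = 0.00161). Havcr2 was also called lower without stimulation (-0.74 log2, adjusted p = 0.0224), a call that ended in 5 of 12 leave-outs. Cd69, an early activation antigen, was at 58.5, 77.1 and 62.6 CPM in wild-type and 39.5, 33.4 and 37.8 CPM in Mirc11-/- libraries (-0.84 log2, adjusted p = 0.00272). In both genes the groups were separate. Crtam, an adhesion receptor of activated cytotoxic cells, and Tnfrsf9, the costimulator 4-1BB, had -0.53 and -0.35 log2 without passing the test. Without Mirc11-/- library 2 or 3, 2 genes of this list were called higher.

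Cholesterol synthesis and uptake was the list with the highest share of falls among those described here. Of 24 genes 18 fell (75%, against 5.13% of all tested genes) and none rose. The median was -0.59 log2 (-0.17 between unstimulated genotypes), and 22 were lower without overlap, as were 16.8% of all tested genes. Hmgcs1 (ENSMUSG00000093930), the synthase of the early mevalonate pathway, was at 305, 380 and 285 CPM in wild-type and 122, 165 and 178 CPM in Mirc11-/- libraries (-1.06 log2 ± 0.148, adjusted p = 0.00161). Sqle, the epoxidase that begins the sterol branch, was at 61.6, 68.8 and 61.7 CPM in wild-type and 39.9, 42.5 and 43.9 CPM in Mirc11-/- libraries (-0.60 log2 ± 0.0855, adjusted p = 0.00162). Lss, the cyclase that forms lanosterol, fell by 0.56 log2 (adjusted p = 0.00296). Genes of early and late steps of the pathway thus fell together. Srebf2, which encodes the transcription factor that drives the pathway, had -0.29 log2 without passing, as did Mvk (-0.39), Pmvk (-0.41) and Ebp (-0.32). The list had 16 lower members without Mirc11-/- library 1, 11 without wild-type library 2, 2 with the stimulated libraries alone and 0 with the vomeronasal covariate (median -0.25 log2).

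The promoter of Hmgcs1 (RefSeq, GRCm38.p6, chr13:119690101-119690400, plus strand, 250 bases before to 50 after the start) is shown because Hmgcs1 had the largest fall of the list. The capitals mark CACCCCAC, the core of the sterol regulatory element.
Hmgcs1 promoter: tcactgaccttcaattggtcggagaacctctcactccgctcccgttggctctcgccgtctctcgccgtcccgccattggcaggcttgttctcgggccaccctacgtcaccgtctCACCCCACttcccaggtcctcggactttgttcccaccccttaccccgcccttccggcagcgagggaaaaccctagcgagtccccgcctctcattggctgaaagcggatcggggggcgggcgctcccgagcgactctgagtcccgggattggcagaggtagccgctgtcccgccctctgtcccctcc
A gene was counted when any of its promoter entries held this string on either strand. Those were 2 of the 16 cholesterol genes with an entry (12.5%; Hmgcs1 and Acat2) and 3.76% of all tested genes with an entry. In the other lists searched the share ran from 0% to 9.52%, the highest being 2 of 21 stress response genes. The Hmgcs1 match overlapped no other motif searched. It is a match of letters, and binding of a factor was not measured.

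Stress response genes included many falls. Of 22 genes of the unfolded-protein and integrated stress response, 12 fell (54.5%, against 5.13% of all tested genes) and none rose. The median was -0.52 log2, and -0.11 between unstimulated genotypes. Atf4, the factor that drives amino acid genes when translation initiation is restrained, was at 273, 334 and 333 CPM in wild-type and 148, 237 and 233 CPM in Mirc11-/- libraries (-0.61 log2, adjusted p = 0.0457). Atf3, a factor downstream of it, was at 8.52, 13.5 and 11.8 CPM in wild-type and 5.27, 5.24 and 4.21 CPM in Mirc11-/- libraries (-1.20 log2, adjusted p = 0.00514). Asns, asparagine synthetase, was at 123, 159 and 145 CPM in wild-type and 57.6, 96.6 and 101 CPM in Mirc11-/- libraries (-0.74 log2, adjusted p = 0.0297). No Mirc11-/- library reached a wild-type value for these genes. Herpud1, a component of endoplasmic reticulum degradation, was at 46.7, 56.2 and 64.1 CPM in wild-type and 22.1, 34.5 and 28 CPM in Mirc11-/- libraries (-0.98 log2, adjusted p = 0.00272). Hspa5, the chaperone BiP, and Chac1, which degrades glutathione, had -0.52 and -1.15 log2 (adjusted p = 0.0297 and 0.0153), and both calls ended without Mirc11-/- library 1 (0.0584 and 0.0938) and without wild-type library 2 or 3. Ddit3 (-0.49 log2) and Sesn2 (0.01 log2) did not pass. The list had 5 lower members without Mirc11-/- library 1, 2 without wild-type library 2 or 3, 2 with the stimulated libraries alone and 0 with the vomeronasal covariate (median -0.01 log2). Atf3 and Herpud1 kept their calls in all 12 leave-outs. The call of Asns ended without wild-type library 2 or 3 (adjusted p up to 0.122) and that of Atf4 in 7 leave-outs (adjusted p up to 0.158), and with the covariate the difference of Atf4 was 0.12 log2.

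Cytosolic tRNA synthetases, many of which Atf4 regulates, were all on the lower side. Of 19 tested, 11 fell (57.9%, against 5.13% of all tested genes) and none rose. All 19 differences were negative (median -0.41 log2, range -0.60 to -0.13). Gars, for glycine, was at 188, 225 and 212 CPM in wild-type and 110, 150 and 151 CPM in Mirc11-/- libraries (-0.60 log2, adjusted p = 0.0093). Iars, for isoleucine, was at 125, 153 and 154 CPM in wild-type and 100, 106 and 103 CPM in Mirc11-/- libraries (-0.48 log2 ± 0.0867, adjusted p = 0.00618). Both were lower in each Mirc11-/- library, Iars by a narrow margin from wild-type library 1. The call of Gars ended without wild-type library 2 (adjusted p = 0.0536). The list had 6 lower members without Mirc11-/- library 1 or unstimulated wild-type library 1, 2 without wild-type library 2, 3 without wild-type library 3, and 0 with the stimulated libraries alone or with the covariate (median 0.02 log2).

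Promoters of 2 members of these lists, Chac1 (chr2:119350992-119351291, plus strand) and Iars (chr13:49681880-49682179, plus strand), are shown because their lists moved together and share a string. The capitals mark TTGCATCA, a form of the C/EBP-ATF response element that ATF4 is known to bind.
Chac1 promoter: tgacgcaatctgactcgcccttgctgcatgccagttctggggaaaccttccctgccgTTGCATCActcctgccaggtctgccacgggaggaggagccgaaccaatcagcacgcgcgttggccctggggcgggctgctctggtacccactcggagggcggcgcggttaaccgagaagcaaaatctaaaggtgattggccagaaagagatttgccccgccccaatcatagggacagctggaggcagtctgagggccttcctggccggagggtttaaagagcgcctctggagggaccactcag
Iars promoter: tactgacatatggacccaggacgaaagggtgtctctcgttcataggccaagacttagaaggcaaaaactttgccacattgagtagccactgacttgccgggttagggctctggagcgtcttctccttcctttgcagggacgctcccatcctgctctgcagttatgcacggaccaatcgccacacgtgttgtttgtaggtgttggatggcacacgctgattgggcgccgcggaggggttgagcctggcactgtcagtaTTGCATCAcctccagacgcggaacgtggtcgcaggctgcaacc
On either strand a promoter held the string for 4 of 12 tRNA synthetase genes with an entry (33.3%; Aars, Iars, Tars and Yars). The same held for 3 of 21 stress response genes (14.3%; Atf3, Chac1 and Herpud1) and for 87 of 10734 tested genes with an entry (0.811%). None of these matches overlapped another motif searched. Of the 7 genes, all were called lower, although the calls of Aars, Tars and Yars ended in 7, 4 and 2 of 12 leave-outs. They were taken from lists in which 11 of 19 and 12 of 22 members were called lower, against 5.13% of all tested genes. Calls among the other genes with this string were not counted, so the 7 calls do not bear on the string. Whether ATF4 bound them here was not measured. Motifs for AP-1 and NF-kB were also searched. They were in promoters of 4 and 3 of 17 cytokine and chemokine genes (23.5% and 17.6%), against 6.49% and 0.466% of all tested genes with an entry. Of the cytokine genes with either motif, Ccl9 was called lower, and Csf1, Il16, Ltb, Cxcl10 and Lif were not called. The NF-kB motif was also in promoters of 2 of 21 NF-kB list genes, Nfkbia, called lower, and Nfkb2, not called.

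Nutrient transport and ribosome assembly genes had some falls. Of 27 glycolysis and nutrient transport genes 5 fell (18.5%) and none rose (median -0.58 log2), all 5 of them transporters. Lower calls made up 5.13% of all tested genes and 7.66% of those with a mean level of at least 2 log2 CPM. Slc7a5, the large neutral amino acid transporter, was at 111, 167 and 164 CPM in wild-type and 71.8, 80.8 and 75.3 CPM in Mirc11-/- libraries (-0.95 log2, adjusted p = 0.00196). Slc1a4, a serine and alanine transporter, and Slc2a3, a glucose transporter, had -0.82 and -0.64 log2 (adjusted p = 0.0108 and 0.0205). Slc2a1, the main glucose transporter, varied widely, at 115, 73.6 and 191 CPM in wild-type and 27.1, 89.5 and 44.0 CPM in Mirc11-/- libraries, and did not pass (-1.24 log2, adjusted p = 0.106). Glycolytic enzymes had negative differences that did not pass either, such as Hk2, the hexokinase of activated lymphocytes (-1.02 log2, adjusted p = 0.0613), and Gapdh (-0.58 log2). Without Mirc11-/- library 2 this list had 19 lower members and without wild-type library 1 it had 8, and without wild-type library 2 or 3 it had 2 each and without Mirc11-/- library 1 it had 3. With the stimulated libraries alone it had 1, and with the covariate 0 and a median of 0.09 log2. Of 24 ribosome biogenesis factors 7 fell (29.2%, against the same 5.13% and 7.66%) and none rose (median -0.33 log2). They included Rrp12 (-0.62 log2, adjusted p = 0.0082) and Nolc1 (-0.60 log2, adjusted p = 0.011). The ribosome list had 14 lower members without wild-type library 1 and 2 without wild-type library 2.

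**Figure D4:**
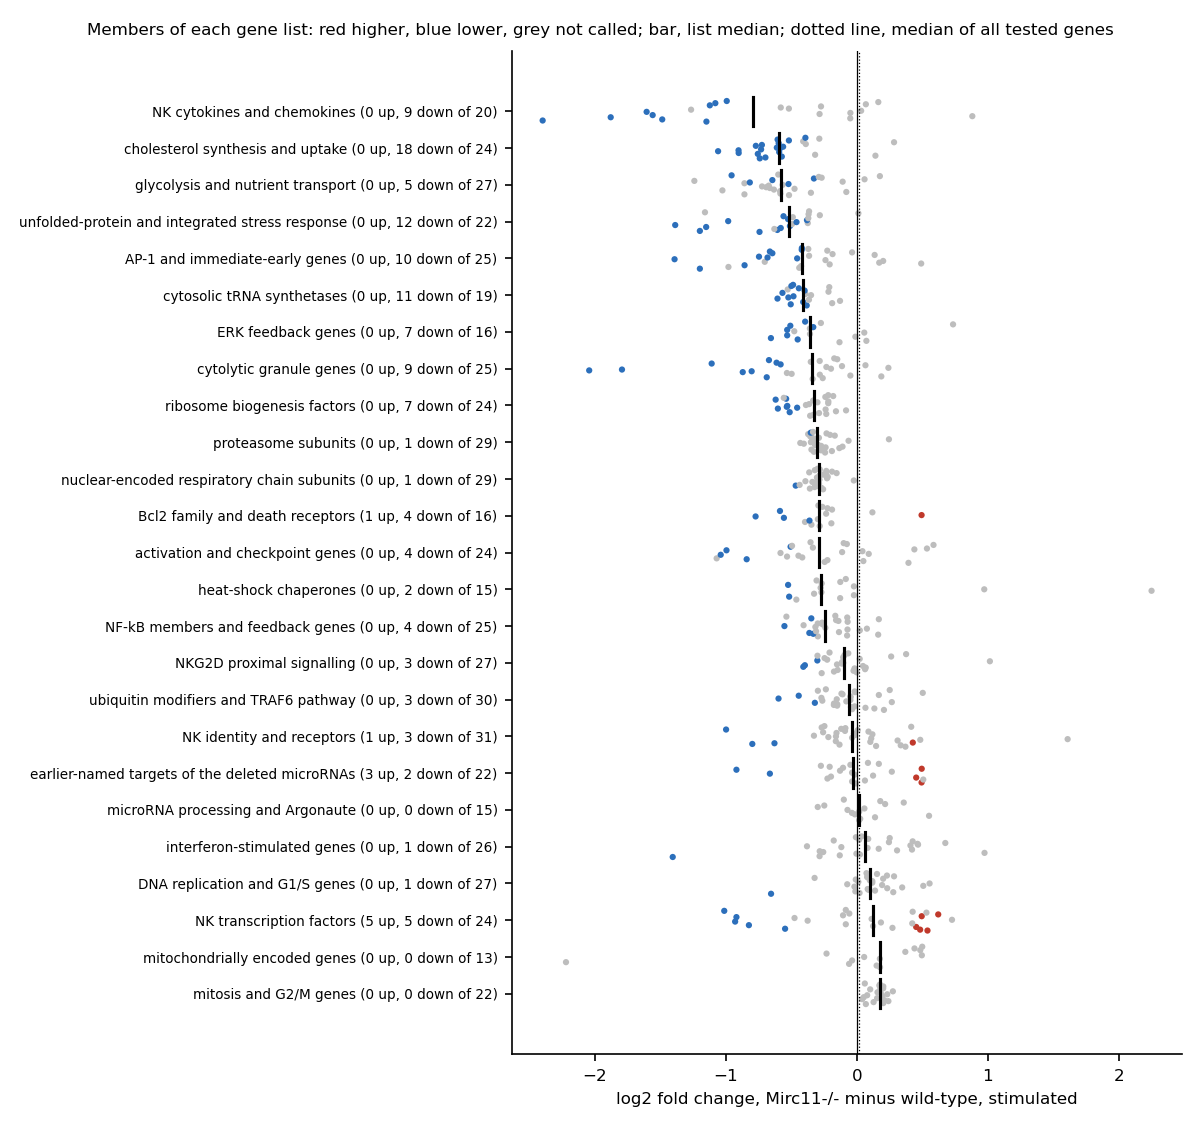
Log2 differences (x axis, Mirc11-/- minus wild-type after stimulation) of the tested members of each gene list, ordered by list median (black bar); red marks higher, blue lower and grey not called, and the dotted line is the median of all tested genes (0.02). The marker lists and the neighbours of the cluster are not plotted. Of the lists shown, those with a median at or below -0.50 are the cytokines (-0.79), cholesterol (-0.59), glycolysis and transport (-0.58) and stress response (-0.52) lists, whereas mitosis genes (0.18) lie just above 0.

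Cell-cycle, mitochondrial and interferon-response genes gave few calls. Of all tested genes 5.13% were called lower. None of 22 mitosis genes was called, and all 22 had small positive differences from 0.04 to 0.28 log2. Of 27 DNA replication genes 1 fell, Ccnd2, which encodes cyclin D2 (-0.65 log2, adjusted p = 0.0115; 0.0519 without wild-type library 2). Of 29 nuclear-encoded respiratory chain subunits 1 fell, Cox5a, although all 29 differences were negative (median -0.29 log2). Without Mirc11-/- library 2, 6 were called lower, and the call of Cox5a ended in 7 of 12 leave-outs, which left 0. Of 29 proteasome subunits 1 fell, Psmd2 (median -0.30 log2), and 8 were called lower without Mirc11-/- library 2 and 3 without wild-type library 1, while the call of Psmd2 ended in 9 of 12 leave-outs. None of 13 mitochondrially encoded genes passed. Of 26 interferon-stimulated genes 1 fell, Bst2, encoding the antiviral tether tetherin, at 13.2, 21.1 and 15.7 CPM in wild-type and 5.16, 7.11 and 6.57 CPM in Mirc11-/- libraries (-1.40 log2, adjusted p = 0.00173). Bst2 was lower without stimulation as well (-0.97 log2, adjusted p = 0.0236), a call that ended in 5 of 12 leave-outs (adjusted p up to 0.157). None of 15 microRNA processing and Argonaute genes passed (median 0.02 log2).

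Survival genes moved in both directions. Of 16 Bcl2 family and death receptor genes 4 fell (25%) and 1 rose (6.25%), with a median of -0.29 log2. Of all tested genes 5.13% were lower and 3.89% higher. Of those with a mean level of at least 2 log2 CPM 7.66% were lower and 3.79% higher. Bcl2l11 (ENSMUSG00000027381), which encodes the pro-apoptotic protein BIM, was at 297, 295 and 292 CPM in wild-type and 465, 389 and 390 CPM in Mirc11-/- libraries (0.49 log2 ± 0.0854, adjusted p = 0.00497; 0.40 log2 and adjusted p = 0.0022 without Mirc11-/- library 1). The wild-type values were nearly equal and every Mirc11-/- library was higher. Bcl2l1, the anti-apoptotic BCL-XL gene, was at 45.3, 66.0 and 47.8 CPM in wild-type and 31.5, 34.4 and 27.2 CPM in Mirc11-/- libraries (-0.77 log2, adjusted p = 0.00441). Of 15 heat-shock chaperone genes 2 fell (13.3%, against the same 5.13% and 7.66%), Hspa5 and Dnajb1. Both of those calls ended without wild-type library 2 or 3, settings in which the Bcl2 list had 2 lower members, as it had without Mirc11-/- library 3.

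Bcl2l11 is also among the genes named in earlier work as targets of these microRNAs. Of 22 tested genes of that list 3 rose (13.6%, against 3.89% of all tested genes) and 2 fell (9.09%, against 5.13%). The rises were Bcl2l11, Runx1 and Foxo1, the falls were Prdm1 and Myc, and the median was -0.03 log2. Their seed-matched sites in the annotated 3′ untranslated region are shown for the list's rises, for Prdm1, which fell, and for Tnfaip3, which did not pass. Capitals mark the 7-base site.
Bcl2l11 miR-24 site (chr2:128158805-128158811, plus strand): gtgggaaCTGAGCCagctgat
Bcl2l11 miR-24 site (chr2:128161157-128161163, plus strand): tcgtcaaCTGAGCCaaatgtc
Runx1 miR-23a site (chr16:92604572-92604578, minus strand): accactgAATGTGAtttttaa
Runx1 miR-27a site (chr16:92605550-92605556, minus strand): gagggaaACTGTGAatgcttc
Foxo1 miR-27a site (chr3:52347396-52347402, plus strand): ttgtaatACTGTGAtggtctc
Tnfaip3 miR-23a site (chr10:19001058-19001064, minus strand): cattgttAATGTGAaatggtt
Tnfaip3 miR-27a site (chr10:19002666-19002672, minus strand): cagtggtACTGTGAtccagac
Tnfaip3 miR-24 site (chr10:19002394-19002400, minus strand): gcagttcCTGAGCCtggctgc
Prdm1 miR-23a site (chr10:44438786-44438792, minus strand): atctgaaAATGTGAagaagat
Other listed genes also held sites without being called, such as Cblb with 1 site (-0.04 log2), Itch and Xiap with 2 each (-0.02 and 0.09 log2), Tab3 with 4 (-0.05 log2) and Sema6d with 5 (-0.21 log2). Myc, which fell, held none. Runx1 was at 74.7, 61.1 and 72.3 CPM in wild-type and 120, 86.0 and 87.4 CPM in Mirc11-/- libraries (0.49 log2, adjusted p = 0.0331), and Foxo1 at 32.0, 28.9 and 34.6 CPM in wild-type and 50.2, 44.3 and 36.3 CPM in Mirc11-/- libraries (0.45 log2, adjusted p = 0.0439). Prdm1, which encodes the repressor BLIMP-1, fell by 0.92 log2 (adjusted p = 0.0344), a call that ended in 8 of 12 leave-outs (highest adjusted p 0.146, without Mirc11-/- library 1). Without Mirc11-/- library 1, stimulated wild-type library 2 or 3, or unstimulated wild-type library 1, 1 gene of the list was called higher, and 1 was called lower in 8 of the leave-outs. Coordinates are GRCm38, and a site is a match of letters whose use was not measured.

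Over all tested genes with an annotated 3′ untranslated region (12800), differences were small between site classes. Genes with a miR-23a, miR-27a or miR-24 site had medians of 0.019, 0.011 and -0.005 log2 (2183, 2331 and 2492 genes), genes with none of the 3 sites -0.088 log2 (7473 genes) and genes with all 3 sites 0.078 log2 (226 genes). The same classes had medians between -0.015 and 0.011 log2 in the unstimulated comparison. Genes with sites had longer 3′ untranslated regions, with median lengths of 2319 to 2537 bases against 741 bases without a site. Within the longest of 3 length classes, genes with any site had a median of 0.026 log2 and those without -0.025 log2, and within the shortest class -0.083 and -0.13 log2. Among genes with a mean level of at least 2 log2 CPM, the miR-23a, miR-27a and miR-24 classes had medians of -0.041, -0.06 and -0.067 log2. Genes there with none of the 3 sites had -0.145 log2 and those with all 3 had 0.006 log2. Site classes differ in region length and level, and the part of length and level in these medians was not tested.

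Among named, called genes with a mean level of at least 2 log2 CPM and no overlap between the groups, the 12 largest rises were 1.12 to 1.63 log2, gene models without a name left out. Mid1 (ENSMUSG00000035299), an X-linked E3 ubiquitin ligase gene, was at 38.4, 38.4 and 29.6 CPM in wild-type and 150, 82.5 and 96.4 CPM in Mirc11-/- libraries (1.63 log2 ± 0.277, adjusted p = 0.00897). Mirc11-/- library 1 was the highest, and the rise was 1.33 log2 without it (adjusted p = 0.0312). Gja1 (ENSMUSG00000050953), which encodes the gap junction protein connexin 43, was at 4.28, 4.03 and 2.39 CPM in wild-type and 9.33, 9.38 and 10.9 CPM in Mirc11-/- libraries (1.47 log2 ± 0.219, adjusted p = 0.00235). Its Mirc11-/- values were close together, and the difference was 1.61 log2 without stimulation (adjusted p = 0.00349). Fstl1, a secreted follistatin-like protein gene, was at 9.08, 5.45 and 5.13 CPM in wild-type and 23.4, 12.5 and 15.2 CPM in Mirc11-/- libraries (1.37 log2, adjusted p = 0.00618). The other genes of this rank were Me3, Cdk15, Ifi206, Olfr975, Ifi213, Lmtk3, Dpp10, Olfr73 and Olfr1385, with rises of 1.12 to 1.5 log2. Among them are 3 olfactory receptor genes, whose reads accompany the vomeronasal sum. The calls of Me3, Cdk15, Ifi206, Ifi213, Lmtk3 and Olfr73 ended without Mirc11-/- library 1 (adjusted p 0.0547, 0.125, 0.0568, 0.0712, 0.121 and 0.153). Those of Dpp10 and Olfr975 ended without wild-type library 2 or 3.

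The largest falls included genes nearly absent from Mirc11-/- cells. Itln1 (ENSMUSG00000038209, chromosome 1), which encodes the carbohydrate-binding lectin intelectin, was at 9.78, 9.94 and 10.2 CPM in wild-type and 0, 0 and 0.168 CPM in Mirc11-/- libraries. The counts were 606 and 3 over the libraries of each group, a ratio of 174 after scaling for size (exact interval of 95% confidence 59.1 to 844, counting error only). Fcgr2b (ENSMUSG00000026656, chromosome 1), the inhibitory Fc receptor, was at 17.6, 13.4 and 14.7 CPM in wild-type and 3.42, 1.17 and 2.19 CPM in Mirc11-/- libraries (-2.75 log2 ± 0.299, adjusted p = 0.000291). Both were lower without stimulation too. Tmem119, a membrane protein gene known from microglia and bone, was at 63.0, 39.5 and 71.3 CPM in wild-type and 3.25, 14.2 and 8.37 CPM in Mirc11-/- libraries (-2.75 log2, adjusted p = 0.0147; 0.0513 without wild-type library 3). Tdrd9, a helicase gene of germ cells, was at 16.2, 16.0 and 15.2 CPM in wild-type and 2.67, 3.55 and 4.94 CPM in Mirc11-/- libraries (-2.08 log2, adjusted p = 0.000109). Tnfrsf8, the costimulatory receptor CD30, was at 60, 82.5 and 50.2 CPM in wild-type and 16.1, 18.6 and 22.9 CPM in Mirc11-/- libraries (-1.74 log2, adjusted p = 0.0012). Csf2rb, the shared beta chain of the GM-CSF receptor, was at 23.0, 21.1 and 17.9 CPM in wild-type and 5.68, 4.54 and 8.54 CPM in Mirc11-/- libraries (-1.72 log2, adjusted p = 0.00753). Clic5, an actin-associated channel protein gene, fell by 2.11 log2 (adjusted p = 0.0119; 0.0859 without Mirc11-/- library 1). Tdrd9, Csf2rb and Clic5 were also called lower without stimulation (-1.82, -1.90 and -1.72 log2, adjusted p = 0.000391, 0.0169 and 0.0413). Tdrd9 kept that call in all 12 leave-outs, while those of Csf2rb and Clic5 ended in 4 and 9. Tnfrsf8 did not pass there (-0.90 log2, adjusted p = 0.0643). After stimulation every Mirc11-/- library was below every wild-type one for each of these genes, which the rule for ranking them required.

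Between unstimulated genotypes far fewer genes were called, 54 higher (0.309%) and 139 lower (0.796%), 193 in all (1.11%). The unstimulated comparison shares no library with the stimulated one, but both came from the same fit and share each gene's estimate of spread. Calls in both treatments are therefore not fully independent. Of the genes called higher, 28 were called in both treatments (4.12% of those in stimulated and 51.9% of those in unstimulated cells), and of the genes called lower 107 (11.9% and 77%), with none in opposite directions. Of the 789 genes called lower in stimulated cells and not in unstimulated ones, 690 had a negative difference in unstimulated cells, with medians of -0.49 log2 stimulated and -0.14 log2 unstimulated. A gene called in 1 treatment and not in the other is not shown to differ between them. Only the direct test of the genotype difference between treatments (interaction) bears on that, and it called 0 genes higher (0%) and 2 lower (0.0115%), Ccl3 and Ifng, in edgeR, with 1858 genes at an unadjusted p under 0.05. DESeq2 called 15 higher and 48 lower. Ccl3 differed between genotypes by 0.28 log2 in unstimulated cells (adjusted p = 0.82) and Ifng by 0.27 log2 (adjusted p = 0.746).

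**Figure D5:**
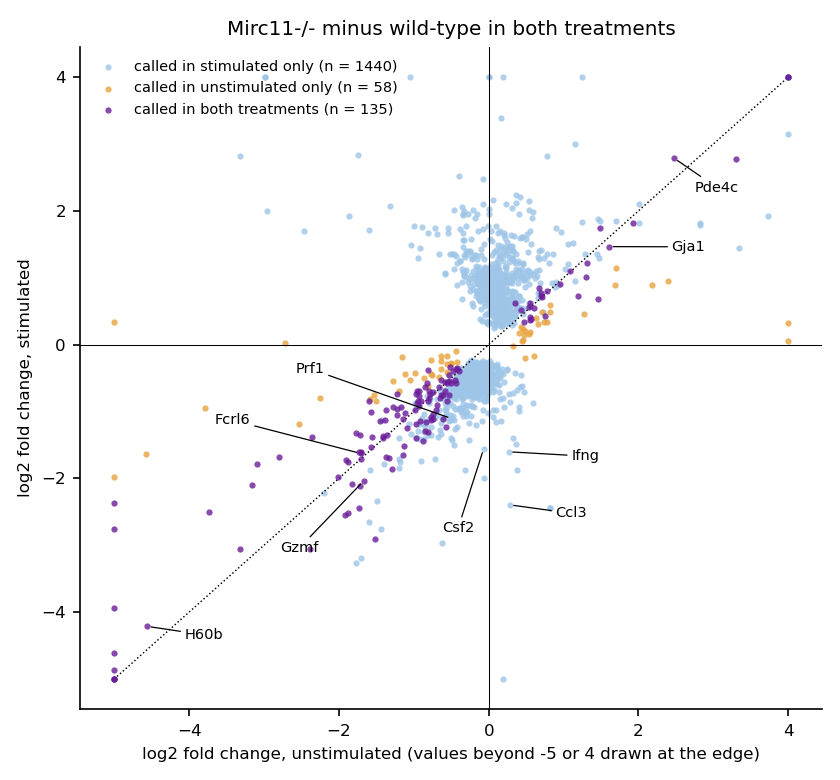
Log2 difference between genotypes in unstimulated cells (x axis) and in stimulated cells (y axis) for every gene called in either comparison; purple marks 135 genes called in both, light blue those called in stimulated and orange those called in unstimulated cells alone, and the dotted line marks equal differences. Purple genes such as H60b (-4.56 and -4.21) and Fcrl6 (-1.71 and -1.63) lie along that line, whereas Ccl3 (0.28 and -2.40) and Ifng (0.27 and -1.60) lie below 0 on the y axis alone.

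Genes called in both treatments included receptors and ligands of NK cells, which are named here after their values were seen. Fcrl6, an Fc receptor-like gene of cytotoxic lymphocytes, was at 125, 130 and 111 CPM in stimulated wild-type and 32.8, 38.6 and 46.8 CPM in stimulated Mirc11-/- libraries (-1.63 log2 ± 0.14, adjusted p = 3.53e-05). Without stimulation its difference was -1.71 log2 (adjusted p = 3.28e-05). H60b, which encodes a ligand of NKG2D itself, was at 5.73, 4.74 and 4.78 CPM in stimulated wild-type and 0.348, 0.175 and 0.281 CPM in stimulated Mirc11-/- libraries (-4.21 log2, adjusted p = 3.03e-06). The groups were far apart for both genes. Pdgfb, a platelet-derived growth factor gene, was at 10.2, 13.7 and 11.2 CPM in wild-type and 3.94, 2.97 and 3.76 CPM in Mirc11-/- libraries (-1.72 log2, adjusted p = 6.91e-05).

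These shared calls were unevenly spread over the genome. Within 20 megabases of the deleted cluster on chromosome 8, 74 of 363 tested genes were called in stimulated cells (20.4%) and 23 in both treatments (6.34%), against 8.78% and 0.655% of all other tested genes. Man2b1, a lysosomal mannosidase gene in that region, was at 92.2, 87.0 and 95.7 CPM in wild-type and 173, 186 and 179 CPM in Mirc11-/- libraries (0.97 log2, adjusted p = 1.26e-05). Its values were tight and separate in both groups. Man2b1 was not called without stimulation (0.31 log2, adjusted p = 0.0646). Adgrg3, Mri1 and Lzts1 on the same chromosome had -1.19, -1.52 and -1.14 log2, and Pde4c, a phosphodiesterase gene, 2.79 log2. Between 170 and 175 megabases of chromosome 1, 18 of 89 tested genes were called in stimulated cells (20.2%) and 11 in both treatments (12.4%). This stretch holds Fcgr2b, Fcgr3, Itln1, Fcrl6, the interferon-inducible genes Ifi206 and Ifi213, which were higher, Ly9, a SLAM family receptor gene (0.77 log2, adjusted p = 0.00514), Cd244, an NK receptor of the SLAM family (-0.39 log2, adjusted p = 0.0241), and Sh2d1b2, a SLAM adaptor gene (-1.35 log2, adjusted p = 0.00176). Of these, Ifi213, Cd244 and Sh2d1b2 were not called without stimulation. Their differences there were 1.06, 0.25 and -0.81 log2 (adjusted p = 0.0984, 0.343 and 0.0573). Other genes of the interferon-inducible family of Ifi206 and Ifi213 in the stretch were called lower. Ifi203 fell by 0.71 log2 (adjusted p = 0.00161) and Ifi211 by 1.68 log2 (adjusted p = 0.0173; 0.0722 without wild-type library 2), and Ifi202b was at 1.02 to 2.85 CPM in wild-type and at most 0.174 CPM in Mirc11-/- libraries. These genes share sequence, with 36.4%, 26.5%, 21.6% and 78.9% of the 31-base words of Ifi206, Ifi213, Ifi203 and Ifi211 found in other genes, so the split of reads among them is uncertain. The call of Cd244 ended without wild-type library 2 or 3. Both windows were chosen after the values were seen. The labels name a single strain, and a stretch of chromosome inherited with the deleted locus or from another strain cannot be told apart from an effect of the deletion.

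Markers of other cell types were low, and few were called. The 8 NK markers summed to 6680 to 7990 CPM in wild-type and 3560 to 5710 CPM in Mirc11-/- libraries, a sum made mostly of Prf1 and Gzmb; 3 of the 8 fell (Prf1, Nkg7 and Eomes), while Klrb1c (-0.15 log2), Klrd1 (-0.09 log2) and Ncr1 (-0.27 log2) overlapped. The 8 T-cell markers summed to 46.2 to 72.7 CPM in wild-type and 75.7 to 97.6 CPM in Mirc11-/- libraries, without overlap, and 1 of them was called, Cd8b1 at 1.40 to 2.67 CPM in Mirc11-/- and 0.512 to 0.711 CPM in wild-type libraries. B-cell markers summed to 105 to 128 CPM in wild-type and 102 to 113 CPM in Mirc11-/- libraries, mostly Ighm, and 1 of them was called (Pax5, at most 1.28 CPM). Cd79b, a chain of the B-cell receptor complex, had at most 3 counts in any library. In the same order, dendritic-cell markers summed to 87.3 to 131 CPM and 159 to 194 CPM, mostly Itgax, which activated NK cells also express (0.95 log2, adjusted p = 0.0437, a call that ended in 8 of 12 leave-outs). Macrophage and monocyte markers summed to 16.0 to 19.2 CPM in wild-type and 10.8 to 15.1 CPM in Mirc11-/- libraries, and no member was called. The macrophage genes Lyz2 and Adgre1 had at most 4 counts in any stimulated library. Neutrophil and mast-cell markers summed to 69.8 to 105 CPM and 69.7 to 109 CPM, with 1 member called (Cpa3, -1.26 log2), erythroid and platelet markers to at most 2.67 CPM, and markers of other innate lymphoid cells to 12.1 to 13.4 CPM and 12.2 to 16.2 CPM. Without stimulation the T-cell markers summed to 38.6 to 66.6 CPM in wild-type and 67.6 to 114 CPM in Mirc11-/- libraries. Dendritic-cell markers there summed to 76.5 to 130 CPM and 190 to 207 CPM. Both were again without overlap, whereas the NK and the macrophage and monocyte sums overlapped without stimulation. The part of T cells or other cells in the differences between genotypes was not tested.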

How the data were processed

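RNA was sequenced from 12 libraries, 3 in each of 4 groups, and the groups were taken from the sample labels. The submitters' processing notes name GRCm38, RSEM 1.3.0, Bowtie2 2.2.8, Trim Galore 0.4.1 and bcl2fastq. The values the authors deposited are RSEM expected counts per gene, all whole numbers, so no rounding was needed. The strand setting and annotation release are not given in the sources used here. Overlapping and antisense genes are therefore not separable. Totals were 15139281 to 25342991 counts per library, and intervals cover counting error only. The study calls the libraries biological replicates without naming animals or cultures, so p-values measure the spread between these libraries.

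Genes were filtered with filterByExpr by group (17457 of 50674 kept), scaled by TMM and fitted over all 12 libraries by edgeR 4.0.16 quasi-likelihood, robust (R 4.3.3), 1 mean per group. Adjusted p are two-sided, by Benjamini-Hochberg over all tested genes. Coordinates came from GENCODE vM21 (17401 genes matched), and microRNA and promoter sequences from RefSeq. The steps were tested on simulated counts.

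Genes named were a fixed set of cytokine, granule, signalling and microRNA genes, the 12 largest rises and 12 largest falls among called, named, non-overlapping genes with a mean of at least 2 log2 CPM, and up to 4 called members per list with the smallest p, or up to 2 where none was called. Genes sharing over 50% of 31-base words with other genes were left out of the ranking. Any other gene named was picked with its values in view, and some genes under the rule are given only within counts. The comparison, the gene lists and the rule were chosen with earlier results of these data known. Alternatives were no filter or a stricter one, scaling by DESeq2 size factors or without a composition factor, DESeq2 1.42.0, limma voom (limma 3.58.1), a non-robust fit, a 1.5-fold test, the vomeronasal covariate, stimulated libraries alone, a replicate block, and each library left out. RefSeq protein sequences were not used here. Some members of the lists are counted but not reported here by name.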

Additional observations from a re-analysis of the deposited data

Results flagged for a closer look

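The difference between genotypes depended on stimulation for 2 genes by the direct test of that difference (edgeR interaction). For Ccl3 it was -2.68 log2 ± 0.301 (SE; adjusted p = 0.0223), from 0.28 log2 in unstimulated to -2.40 log2 in stimulated cells. For Ifng it was -1.87 log2 ± 0.235 (adjusted p = 0.0223), from 0.27 to -1.60 log2. In both genes all 3 stimulated Mirc11-/- libraries were below all 3 stimulated wild-type libraries. Both calls held without stimulated wild-type library 1, stimulated Mirc11-/- library 1 or 2, or unstimulated Mirc11-/- library 1. They ended without any other single library (8 of 12), with adjusted p up to 0.147 for each gene, without unstimulated wild-type library 3. With a replicate block within each genotype both stayed called (adjusted p = 0.00679 for Ccl3 and 0.0191 for Ifng). Without the filter on low counts the call of Ccl3 ended (adjusted p = 0.052), while that of Ifng held (0.000673). With the vomeronasal sum as a covariate the values were -2.02 log2 for Ccl3 and -1.21 log2 for Ifng (adjusted p 0.344 and 0.224).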

How the results depend on the processing

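Counts of genes called between stimulated genotypes depended on single libraries and on how the spread was estimated. Against 679 higher and 896 lower genes, leaving out 1 library gave 77 to 1155 higher and 260 to 1242 lower. A test against a 1.5-fold change gave 11 and 43, the vomeronasal covariate 10 and 20, and the stimulated libraries alone 58 and 157. Without the filter 1389 were lower, and by DESeq2 1380 were lower. Scaling without a composition factor gave 605 higher and 658 lower. With the covariate the direction turned for Cdk15 (-0.085 log2), Cox5a (0.035), Olfr73 (-0.174), Olfr975 (-0.014), Tars (0.043) and Atf4 (0.118), and for Gzmb, which was not called (0.158).

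In unstimulated cells DESeq2 called 105 higher and 277 lower and the 1.5-fold test 9 and 30, and leaving out 1 library gave 17 to 113 higher and 52 to 291 lower. Genes called in both treatments numbered 47 higher and 207 lower by DESeq2, 6 and 15 by the 1.5-fold test, 7 and 19 with the covariate, and 13 to 30 higher and 48 to 175 lower with 1 library left out. For the interaction, 15 genes were higher and 32 lower without the filter, 15 and 48 by DESeq2, 1 higher with the stricter filter, 0 lower with the 1.5-fold test or the covariate, and 0 to 2 higher and 0 to 17 lower with 1 library left out.

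Replicate numbers did not pair the stimulated libraries: same-numbered deviations correlated at 0.213, 0.203 and -0.161. Stimulated and unstimulated libraries of the same number correlated at 0.239, 0.453 and 0.225 in wild-type and at 0.139, -0.098 and 0.34 in Mirc11-/- cells. With the number as a replicate block, 966 genes were higher and 1176 lower in stimulated cells, and the interaction had 0 and 3. With a replicate block within each genotype it had 3 higher and 10 lower.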
